A study of Mus musculus with 4 samples.

Results

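Dividing T cells were taken as the cells of 4 mouse lung libraries that held at least 1 UMI (1 counted RNA molecule) each of Mki67 and Top2a, at least 1 UMI in 2 or more of the T cell receptor complex genes Cd3d, Cd3e and Cd3g, and 0 UMIs of the B cell gene Cd79a. Only cells with more than 200 but fewer than 5000 detected genes entered, and cells above 25000 UMIs or with 8% or more mitochondrial UMIs were left out. This rule found 122 dividing T cells among 5815 T cells and 28153 cells kept in all. The cells were thus chosen by the measured UMIs of 6 genes, so the levels of those genes are a description. The comparator was the 5127 other T cells, which passed the same T cell rule with 0 UMIs of Mki67 and of Top2a. The 566 T cells with only 1 of the 2 markers were in neither class.

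A T cell that has met its antigen leaves its resting state and runs through DNA synthesis (S phase), a second gap (G2) and mitosis. Mki67 encodes a protein that coats mitotic chromosomes, and Top2a an enzyme that untangles DNA, and both are made in S phase, G2 and mitosis. Resting naive T cells keep transcription factors such as Klf2 and Satb1 and the lymph node homing receptor Ccr7, while effector T cells carry granzymes, chemokines and adhesion receptors. T cells divide in the thymus during their development and in lymphoid organs and inflamed tissue during a response, and those in the lung can be resident or passing through in blood.

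Whole lungs came from C57BL/6 wild type mice that the labels give as male, at 10 days after birth (NB), 2 months (2 M), 10 months (10 M) and 18 months (18 M). The tissue was digested with collagenase D and DNase1, dead cells were removed, and single-cell libraries were made on the 10x platform. There was 1 library per age, and the number of animals behind a library is not given, so ages cannot be told apart from libraries and no test between ages was made. Where 4 values are given without names, they follow the order of age from NB to 18 M. Intervals below are exact 95% intervals and cover counting error only. The libraries held 6283 to 11297 barcodes and 33087004 to 64863474 UMIs. They left 5537 to 8377 cells, of which 1104 to 1693 were T cells. Any 2 libraries shared 17 to 28 barcodes, and no barcode was a dividing T cell in both. The library labelled 18 M stood apart in sex-linked RNA. Of its 89 dividing T cells, 39 had UMIs of Xist, which is transcribed from an inactive X chromosome, and none of Ddx3y, Eif2s3y, Uty or Kdm5d of the Y chromosome. In 42 the reverse was seen, 2 had both and 6 had neither. None of the 33 dividing T cells of the other libraries had Xist. Tested results are therefore given without it where that ends a call, and shares and levels are given by library.

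The label held against markers the rule did not use. Stmn1, a microtubule regulator of cycling cells, had a UMI in 112 of the 122 cells, Birc5 (survivin) in 86, cyclin A2 (Ccna2) in 67 and Cdk1 in 62. Cd2, a T cell adhesion receptor, was found in 98 cells. By the rule each cell had at least 2 of the 3 Cd3 genes, and 97 cells had all 3. The edge of the rule was less sharp than its core. The 95 cells with at least 2 UMIs of each marker had a summed level of Birc5, Ccna2, Cdk1 and Stmn1 of 1753 CPM (UMIs of the genes scaled to 1e+06 UMIs in the class). The 10 cells with exactly 1 UMI of each had 196 CPM. Just outside, the 97 T cells with only Mki67 had 141 CPM, the 469 with only Top2a 119 CPM, and the 5127 with neither 111 CPM.

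Dividing T cells were unevenly spread over the libraries, and 73.0% of them came from the library labelled 18 M. In NB, 21 of 1693 T cells divided, or 1.24% (0.769 to 1.89). In 2 M, 3 of 1104 did, or 0.272% (0.0561 to 0.792), and in 10 M 9 of 1329, or 0.677% (0.310 to 1.28). In the library labelled 18 M the share was 89 of 1689, or 5.27% (4.25 to 6.44). The NB, 2 M and 10 M intervals overlapped in part, and that of 18 M overlapped none of them. Within 18 M, 7.22% (5.19 to 9.74) of 540 T cells with Xist and no Y-linked UMI divided, and 4.88% (3.54 to 6.54) of 861 with Y-linked and no Xist UMIs. Both shares lay above those of the other libraries.

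Other cells of the same libraries followed the same order at the top. Among B cells (Cd79a and Cd79b, no Cd3 gene), 2.10% carried both markers in 18 M, against 0.669%, 0.0919% and 0 of 2981 in the 3 younger libraries. Among all cells kept, the shares were 0.706%, 0.217%, 0.242% and 3.15%. T cells made up 46.7%, 25%, 47.4% and 33.7% of the cells with both markers. Median UMIs per T cell were 5520, 6543, 6152 and 5216. Per B cell they were 3827, 3767, 3625 and 3186, and per cell kept 4187, 4180, 3998.5 and 4308. With every cell thinned to 2000 UMIs and the whole rule applied again, 30 of 856 T cells divided in 18 M (3.50%), and 1 each of 909, 490 and 664 in the younger libraries.

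**Figure D1:**
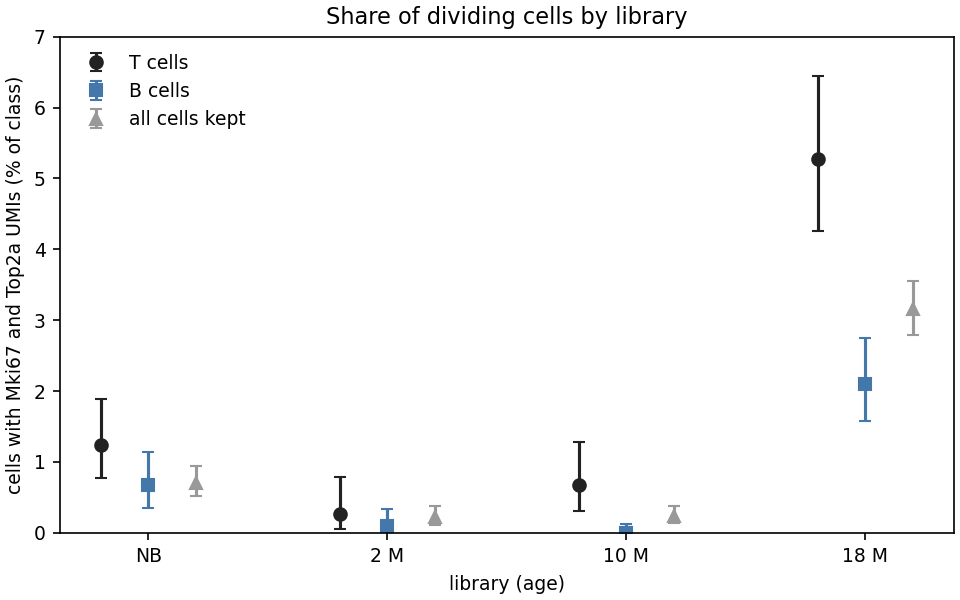
Share of cells with UMIs of both Mki67 and Top2a (vertical axis, % of the class) in each library (horizontal axis) among T cells, B cells and all cells kept. Points are shares and bars are exact 95% binomial intervals, and T cells reach 5.27% in 18 M against 0.272% to 1.24% in the other libraries.

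The genes of the division machinery were read from 4 lists, for S phase and replication, for G2 and mitosis, for nucleotide supply, and for replication histones and chromatin. They move with Mki67 and Top2a by the way the cells were chosen, so their values are given with no test. In genome sequence upstream of such genes, replication genes are known for sites of the E2F factors, and genes of G2 and mitosis for the cell cycle genes homology region (CHR) paired with CCAAT boxes, which the factor NF-Y binds. Sequences of 250 bases directly before the gene start, from RefSeq on GRCm38.p6, are shown for 3 genes of each kind, on the strand of the gene and 5′ to 3′. Capitals mark TTTGAA or TTTAAA (CHR), TTTGGCGC or TTTCCCGC (E2F) and CCAAT, each on either strand. The first 3 genes encode the mitotic kinase Cdk1, cyclin B2 and the ubiquitin-conjugating enzyme Ube2c, which drives the destruction of mitotic cyclins. The last 3 encode Dtl, which directs the destruction of the licensing factor Cdt1, and the replicative helicase subunits Mcm5 and Mcm6.
Cdk1, chr10:69352913-69353162, minus strand: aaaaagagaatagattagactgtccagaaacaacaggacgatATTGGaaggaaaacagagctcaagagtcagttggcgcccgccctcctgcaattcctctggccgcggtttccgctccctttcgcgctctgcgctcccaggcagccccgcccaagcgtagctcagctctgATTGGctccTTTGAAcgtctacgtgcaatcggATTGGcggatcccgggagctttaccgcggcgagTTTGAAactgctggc
Ccnb2, chr9:70421555-70421804, minus strand: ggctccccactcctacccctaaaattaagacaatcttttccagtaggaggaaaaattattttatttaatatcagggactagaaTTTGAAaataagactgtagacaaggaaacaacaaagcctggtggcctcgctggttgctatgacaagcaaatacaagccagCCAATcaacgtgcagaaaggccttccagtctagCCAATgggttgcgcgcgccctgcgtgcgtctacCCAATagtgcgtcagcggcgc
Ube2c, chr2:164769679-164769928, plus strand: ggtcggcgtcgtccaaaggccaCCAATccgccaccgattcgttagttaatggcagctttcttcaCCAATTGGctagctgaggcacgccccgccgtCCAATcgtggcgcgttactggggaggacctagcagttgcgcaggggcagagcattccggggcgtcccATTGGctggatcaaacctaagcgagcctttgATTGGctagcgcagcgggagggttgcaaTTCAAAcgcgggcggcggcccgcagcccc
Dtl, chr1:191575545-191575794, minus strand: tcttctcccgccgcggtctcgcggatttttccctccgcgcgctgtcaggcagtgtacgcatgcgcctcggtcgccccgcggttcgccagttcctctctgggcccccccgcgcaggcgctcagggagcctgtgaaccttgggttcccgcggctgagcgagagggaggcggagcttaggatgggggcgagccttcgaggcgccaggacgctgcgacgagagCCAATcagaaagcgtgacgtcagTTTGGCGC
Mcm5, chr8:75109259-75109508, plus strand: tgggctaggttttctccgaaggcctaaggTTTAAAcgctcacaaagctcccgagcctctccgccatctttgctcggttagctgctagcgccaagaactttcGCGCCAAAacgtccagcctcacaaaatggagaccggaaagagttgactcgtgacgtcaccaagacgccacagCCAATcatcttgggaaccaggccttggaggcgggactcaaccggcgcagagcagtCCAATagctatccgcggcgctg
Mcm6, chr1:128359706-128359955, minus strand: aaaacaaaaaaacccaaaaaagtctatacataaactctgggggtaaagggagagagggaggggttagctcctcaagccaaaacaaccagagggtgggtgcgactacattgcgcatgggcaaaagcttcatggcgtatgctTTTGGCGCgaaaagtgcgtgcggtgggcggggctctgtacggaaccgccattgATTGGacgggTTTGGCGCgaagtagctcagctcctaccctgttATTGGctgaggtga

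In the printed stretches, Cdk1 held 2 CHR and 3 CCAAT matches, Ccnb2 1 and 3, and Ube2c 1 and 6, of which 1 pair forms the palindrome CCAATTGG and overlaps. Dtl held 1 E2F and 1 CCAAT match, Mcm5 1 E2F, 2 CCAAT and 1 CHR match, and Mcm6 2 E2F and 2 CCAAT matches. Over windows of 300 bases (250 before to 50 after the start), CHR was in 23 of 29 promoters of the G2 and mitosis list (79.3%), in 7 of 30 of the S phase list (23.3%) and in 27.6% of all 32851 promoters. E2F was in 10 of 30 S phase promoters (33.3%), in 1 of 29 of the G2 and mitosis list (3.45%) and in 1.56% of all. CCAAT was in 75.9% of the G2 and mitosis promoters, 56.7% of the S phase promoters and 37.4% of all, and CHR and CCAAT together in 69.0%, 16.7% and 10.7%. The lists matched 28 of 34 and 25 of 32 genes. A match describes the letters and is no evidence of binding.

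All 32 genes of the S phase and replication list had UMIs in dividing T cells, and 28 had a higher level than in other T cells of the same library in all 4 libraries. Of all 9758 genes tested, 6.48% were called higher in dividing T cells, and 508 genes were both called and higher in all 4 libraries. These counts add a test and include genes of the lists, so they are not like for like with the list counts here and below. The share of all genes higher in all 4 libraries without a test is not given. Cdc6, which loads the replicative helicase, stood at 58.6, 152, 63.2 and 54.7 CPM in dividing T cells of the 4 libraries, against 0.392 to 0.592 CPM in the other T cells. The log2 difference was 6.70 (SE 0.55). Pcna, the sliding clamp of the DNA polymerases, was higher in level but differed less, with 320, 806, 316 and 426 CPM against 91.7 to 105 CPM and a log2 difference of 1.76 (SE 0.19). Clspn, a fork checkpoint protein, had a log2 difference of 4.44 (SE 0.30), the repressor E2f8 7.50 (SE 0.72), Mcm5 3.49 (SE 0.25), Dtl 3.33 (SE 0.26) and Mcm6 1.59 (SE 0.20). Ung, a DNA repair glycosylase on the same list, did not move with the others and had 13 UMIs in all, with 7.81, 21.8, 0 and 9.43 CPM, against at least 9.74 CPM in the other T cells of every library.

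The G2 and mitosis genes were nearly absent outside the dividing cells, and their median log2 difference was 5.31 against 2.58 for the S phase list. Of 34 genes, 27 were higher in dividing T cells of all 4 libraries. Birc5 had 199, 240, 217 and 190 CPM, against 0.392 to 0.999 CPM in other T cells. Ccna2 had 117, 152, 108 and 105 CPM against 0.131 to 0.624 CPM. The log2 differences were 8.05 (SE 0.34) for Birc5, 8.01 (SE 0.44) for Ccna2, 8.47 (SE 0.74) for the spindle checkpoint kinase Bub1, 6.89 (SE 0.60) for Aurkb and 5.31 (SE 0.28) for the spindle motor Kif11. The genes whose upstream sequences are shown had 5.35 (SE 0.52, Cdk1), 6.44 (SE 0.59, Ccnb2) and 5.50 (SE 0.29, Ube2c). Cenpa, the centromeric histone, was abundant in both classes, at 215, 218, 271 and 216 CPM against 180, 245, 202 and 229 CPM, and the classes overlapped.

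On the nucleotide supply list, of which 12 of 21 genes were higher in all 4 libraries, log2 differences were 5.69 (SE 0.56) for thymidine kinase Tk1, 4.35 (SE 0.30) and 2.80 (SE 0.25) for the ribonucleotide reductase subunits Rrm2 and Rrm1, 3.41 (SE 0.31) for thymidylate synthase Tyms and 2.16 (SE 0.19) for Dut, which removes dUTP. Among the purine synthesis enzymes, Paics differed by 1.05 (SE 0.25), while Gart had 0.74 (SE 0.43) and Ppat 0.44 (SE 0.32). All 22 genes of the histone and chromatin list were higher in dividing T cells of all 4 libraries. The replication histone genes Hist1h3c, Hist1h2ae and Hist1h1b had 8.57 (SE 0.35), 6.05 (SE 0.22) and 5.74 (SE 0.21). Hist1h1b reached 434, 1350, 985 and 434 CPM, against 6.22 to 12.3 CPM in other T cells. The chromatin proteins that resting cells also make differed less, Hmgb2 by 1.30 (SE 0.23) and H2afz by 0.52 (SE 0.22). Histone genes of one cluster are close copies, and reads may be split between them.

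Without the library labelled 18 M, the median log2 differences were 2.34 for the S phase list, 5.28 for the 26 genes then tested of the G2 and mitosis list, 1.03 for nucleotide supply and 2.01 for histones and chromatin, against 2.58, 5.31, 1.10 and 1.95 with it. Outside the lists, the 10 largest differences were taken among genes called and higher in all 4 libraries. They held 2810417H13Rik at 363, 675, 388 and 693 CPM against 0.74 to 1.47 CPM, and the cohesin acetyltransferase Esco2 (log2 8.44, SE 0.58). The others were the kinesin Kif18b, the transcription factor Mybl2, the repair genes Neil3 and Rad51ap1, BC030867 and 3 histone genes (Hist1h3b, Hist1h2af and Hist1h2ab). Like the listed genes, these may move with Mki67 and Top2a by the way the cells were chosen. Their calls are therefore a description.

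Most dividing T cells carried more S phase than G2 and mitosis UMIs. The S phase list took a median of 3712 CPM per cell (lowest 290, highest 9018) and the G2 and mitosis list 2304 CPM (lowest 0, highest 7285). By library the S phase medians were 2905, 5200, 2623 and 3796 CPM and the G2 and mitosis medians 1738, 3261, 2068 and 2378 CPM. In other T cells the library medians were 655 to 724 CPM and 188 to 252 CPM. The S phase list was the higher one in 97 of the 122 cells, which were 17 of 21 in NB, 3 of 3 in 2 M, 7 of 9 in 10 M and 70 of 89 in 18 M. It was the lower one in 22. The lists differ in length and in gene levels, so this is an order of 2 sums and not a call of phase.

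**Figure D2:**
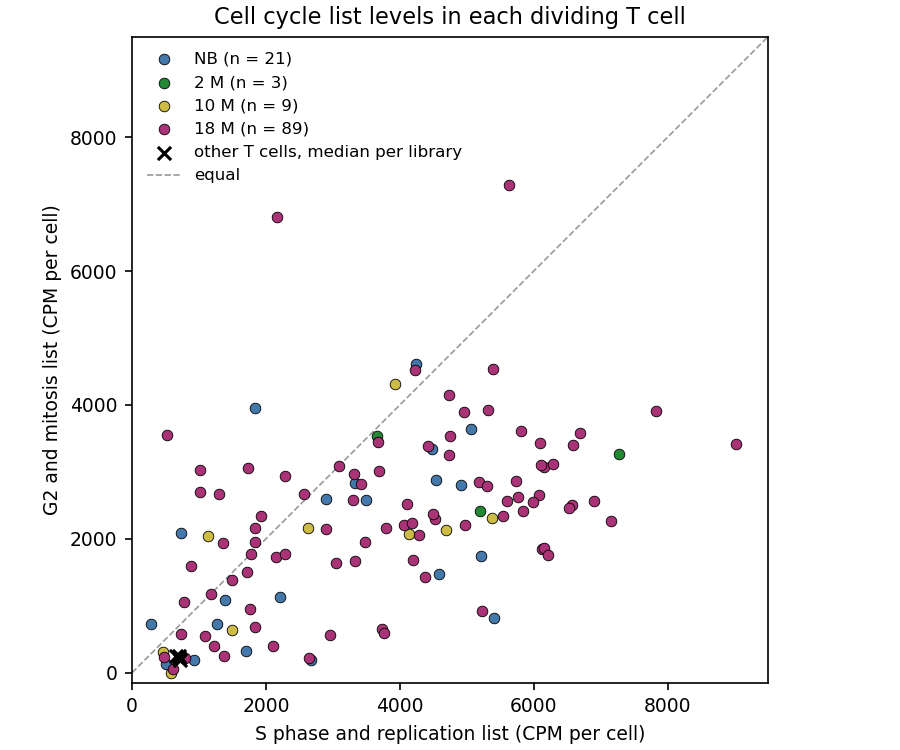
Summed level of the S phase and replication list (horizontal axis, CPM per cell) against that of the G2 and mitosis list (vertical axis, CPM per cell) in each of the 122 dividing T cells, coloured by library, with the dashed line marking equal sums. Crosses are the medians of other T cells in each library, at 655 to 724 and 188 to 252 CPM, and 97 of the 122 points lie below the line.

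The remaining genes were read from 1 fit. It covered all genes that passed the count filter except those of the rule, so genes of the cell cycle lists were in it. UMIs were summed per library and class, and dividing T cells were compared with other T cells of the same libraries with edgeR's quasi-likelihood test, with the library as a block. Of 9758 genes tested, 632 were higher (6.48%) and 668 lower (6.85%) at a Benjamini-Hochberg adjusted p under 0.05, and the median log2 difference over all genes was -0.10. Of the 632 higher genes, 87 were on the cell cycle lists, and none of the lower genes were. The 6.48% given below for all genes is thus set in part by the way the cells were chosen. The 2 classes differed in depth, with a median of 11519.5 UMIs in dividing and 5656 in other T cells. A fit at matched depth restricted other T cells to those at or above the lower quartile of the dividing cells' UMIs. It tested 6350 genes, of which 384 were higher and 257 lower. Its comparator held 999 cells, with 11 in 2 M, so depth and fewer cells were not told apart there. With every cell thinned to 1000 UMIs, which leaves few UMIs in the dividing sums, 29 and 5 of 5374 genes were. Without the library labelled 18 M, 385 of 9538 were higher and 409 lower. Of the 70 calls of named genes, 21 were lost with the sign kept under DESeq2. At matched depth 30 were so lost and 34 were kept. With cells holding markers of other types left out 32 were so lost. Some genes are in more than 1 of these counts. These losses are not all named with the genes below.

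Genes of the naive and resting state were lower in dividing T cells. Of the 20 genes on that list, 15 fell and none rose, where 6.85% of all genes fell, and the median log2 difference was -0.99. The count was 16 without the library labelled 18 M and 12 without NB. It was 6 with no library block, 5 of 19 against other T cells of matched depth, 9 with cells holding markers of other cell types left out, and 0 of 19 after thinning, where the median was -1.30.

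Btg1, which restrains proliferation in resting lymphocytes, showed the most even difference. It stood at 1004, 936, 1039 and 883 CPM in dividing T cells, and at 1801, 1845, 1664 and 1704 CPM in other T cells. The 2 classes did not overlap, and the log2 difference was -1.23 (SE 0.22, edgeR adjusted p = 1.58e-06). Tob1, of the same family, had 50.8, 43.5, 63.2 and 74.5 CPM against 80.9, 105, 94.2 and 118 CPM, also with no overlap (-0.95, SE 0.24). Cdkn1b, the cyclin-dependent kinase inhibitor p27, had 121, 65.3, 136 and 184 CPM against 221, 225, 199 and 262 CPM. It fell by 1.02 on the log2 scale (SE 0.21), a call lost at matched depth and with cells holding markers of other types left out. Il7r, the receptor for the survival cytokine interleukin 7, had 109, 21.8, 117 and 125 CPM against 235, 176, 166 and 179 CPM (-1.10, SE 0.22), again lost under both.

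Satb1, a chromatin organizer of T cells, was the most reduced of the list at -1.56 (SE 0.22, edgeR adjusted p = 1.17e-10). It stood at 250, 740, 262 and 978 CPM in dividing T cells and at 762, 1225, 747 and 1935 CPM in other T cells. Within each library the dividing cells were lower, though the classes overlapped across libraries because 18 M was high in both. Ccr7 fell by 1.36 (SE 0.21) over the 4 libraries, but not in each of them. It had 31.3, 108 and 389 CPM in dividing T cells of NB, 10 M and 18 M, against 328, 439 and 610 CPM. In the 3 dividing cells of 2 M it had 1154 CPM against 760 CPM. Lef1, a naive T cell transcription factor, fell by 1.11 (SE 0.20) and was likewise higher in 2 M alone (806 against 576 CPM), and the calls of Ccr7 and Lef1 were lost at matched depth and without the block. Klf2 (-0.89, SE 0.20), S1pr1, the receptor for exit from tissue (-1.02, SE 0.20), Txnip (-1.07, SE 0.21) and Foxp1 (-0.97, SE 0.20) also fell. The calls of Klf2 and S1pr1 were lost at matched depth, and those of Klf2, Foxp1 and Satb1 without the block. Tcf7, a transcription factor of naive T cells, did not pass the test (-0.27, SE 0.21).

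The summed level of the list was also taken within the Cd4 and Cd8b1 classes of the libraries with at least 5 dividing cells of both, with no test. Its level in dividing over other cells of the same class was 0.47 in Cd4 and 0.36 in Cd8b1 cells of NB, and 0.57 and 0.71 in 18 M. In 18 M it was 0.61 among cells with Xist and 0.66 among cells with Y-linked UMIs.

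Regulators of the cell cycle moved in both directions. Of 19 genes on the list of inhibitors and cyclin D partners, 4 rose and 5 fell, where 6.48% and 6.85% of all genes did. Of those that fell, 4 (Btg1, Btg2, Tob1 and Cdkn1b) are on the naive list too. The Btg2 call (-0.83, SE 0.20) was lost without NB, at matched depth and without the block. The fifth was Ccnd2, a cyclin of the entry into the cycle, with 234, 174, 126 and 238 CPM in dividing T cells and 371, 374, 354 and 455 CPM in other T cells. The classes did not overlap, and it fell by 1.28 (SE 0.20, edgeR adjusted p = 1.7e-08). Its partner Cdk4 rose by 1.15 (SE 0.26), with 113, 152, 54.2 and 68.8 CPM against 27.5 to 39.8 CPM, a call lost at matched depth. Cdkn2c, an inhibitor of Cdk4, rose by 1.34 (SE 0.36), a call lost without 18 M, and the retinoblastoma relative Rbl1 by 1.59 (SE 0.34), a call lost with cells holding markers of other types left out. Cdkn2a, which encodes p16 and p19Arf and is known as a mark of senescence, rose by 3.45 (SE 0.64) from 16 UMIs in 12 dividing T cells. Its levels were 35.2, 0, 27.1 and 3.77 CPM against 2.59, 0, 1.04 and 0.499 CPM, so it was lowest above 0 in 18 M, and its call was lost without the block.

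**Figure D3:**
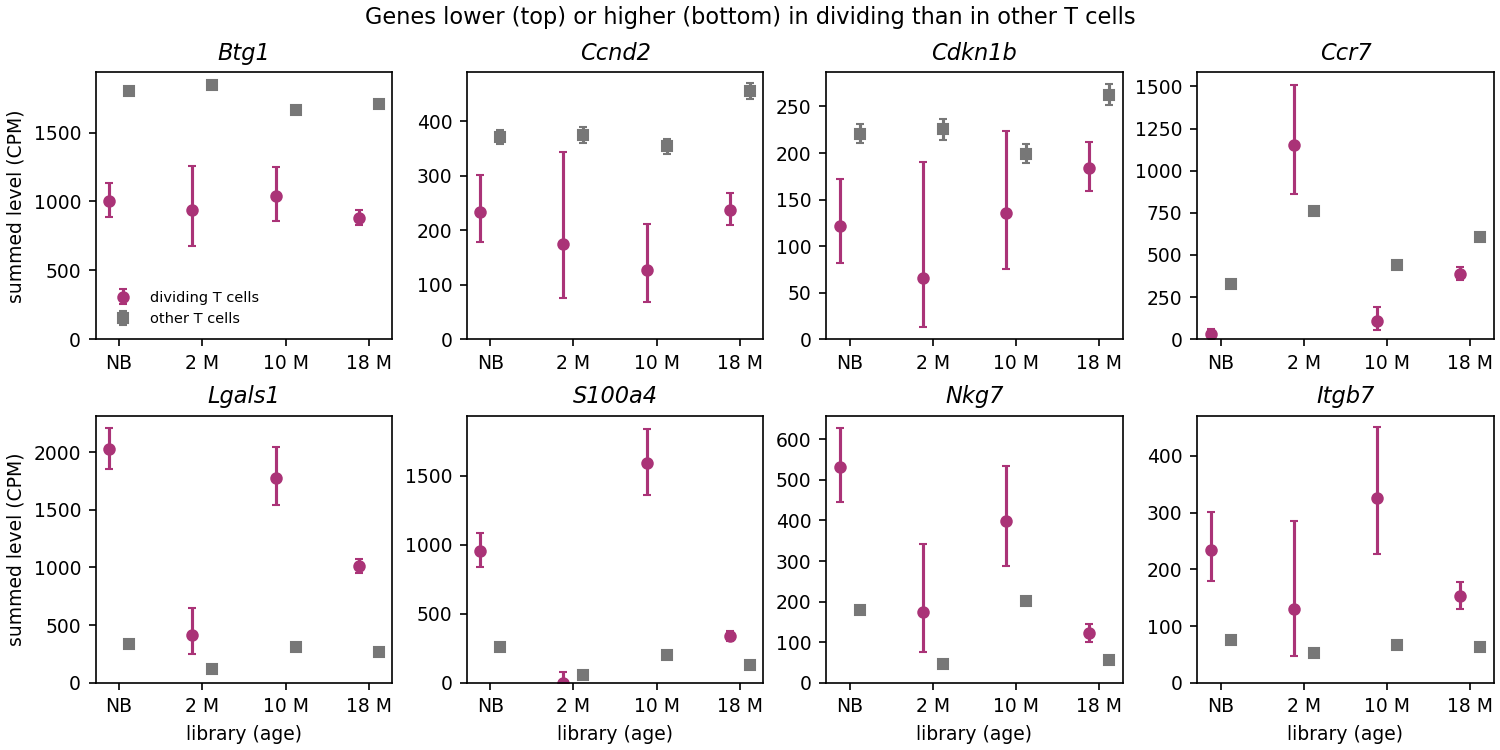
Summed level (vertical axes, CPM) of 8 genes in dividing T cells (circles) and other T cells (squares) of each library (horizontal axes), with exact 95% Poisson intervals. Btg1, Ccnd2 and Cdkn1b were lower in dividing T cells of all 4 libraries and Ccr7 of 3, while Lgals1, Nkg7 and Itgb7 were higher in all 4 and S100a4 in 3.

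Of the survival genes, Mcl1 (-0.86, SE 0.20) and Bcl2 (-0.85, SE 0.24), which protect cells from death, and Bcl2l11 (-0.84, SE 0.21), which promotes it, fell. Mcl1 had 367, 283, 343 and 322 CPM against 409, 527, 463 and 537 CPM, with no overlap. The Bcl2 call was lost without NB, without 10 M, without the block and at matched depth. The Bcl2l11 call was lost without NB and without the block.

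Effector genes did not move as a group. Of 25 tested, 7 rose and 3 fell, where 6.48% and 6.85% of all genes did, and the median was 0.06. Lgals1, which encodes the secreted lectin galectin-1, was the steadiest. It stood at 2027, 414, 1780 and 1013 CPM in dividing T cells and at 338, 122, 313 and 264 CPM in other T cells, with no overlap (1.89, SE 0.21, edgeR adjusted p = 1.71e-17). S100a4, a calcium-binding protein of motile and memory T cells, had 957, 0, 1590 and 340 CPM against 257, 53.9, 205 and 127 CPM (1.56, SE 0.20). Nkg7, a cytotoxic granule protein, had 531, 174, 397 and 122 CPM against 179, 47.2, 201 and 56.1 CPM (0.99, SE 0.20), a call lost without the block. S100a6 (0.99, SE 0.21) and the granzyme Gzmb (1.08, SE 0.27) rose too. The S100a4 and S100a6 calls were lost at matched depth and without the block. The Gzmb call was lost without NB and without the block, those of Gzma (0.62, SE 0.22) and of Klrg1 (1.46, SE 0.53) without NB, without 18 M and without the block, and that of Klrg1 without 2 M too. Gzma turned to -0.45 without NB, and its call was lost at matched depth too.

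The chemokines Ccl3, Ccl4 and Ccl5, which call in other leukocytes, were the 3 that fell. Ccl5 had 4242, 21.8, 5122 and 338 CPM against 4700, 714, 4990 and 462 CPM (-0.91, SE 0.25), a call lost without 2 M, at matched depth and without the block. Ccl4 had 250, 0, 27.1 and 83.0 CPM against 175, 46.5, 259 and 257 CPM (-1.26, SE 0.23), and its call was lost without the block. The Ccl3 call (-1.72, SE 0.33) was lost without 18 M and without the block. The list's summed level in dividing over other T cells was 0.63 for 2 M, 1.53 for 10 M and 1.59 for 18 M, and the list was higher for NB as well.

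Of the regulatory genes, 5 of 13 rose and 1 fell, where 6.48% and 6.85% of all genes did. Ctla4, the inhibitory receptor, had 176, 109, 714 and 381 CPM in dividing and 260, 120, 150 and 143 CPM in other T cells. It was higher in 10 M and 18 M, and lower in NB and 2 M. Its call (0.65, SE 0.20, edgeR adjusted p = 0.0125) was lost without 10 M and without 18 M. Capg (1.12, SE 0.27), Tnfrsf9 (0.83, SE 0.24), Tnfrsf4 (0.79, SE 0.23) and Ikzf2, which encodes Helios (0.57, SE 0.20), also rose, and Ikzf4 fell by 1.17 (SE 0.40). The call of Capg was lost without 18 M, and those of Tnfrsf9 and Tnfrsf4 without 10 M. That of Ikzf2 was lost without NB and without 10 M, and that of Ikzf4 when any 1 library was left out. At matched depth the calls of Capg, Tnfrsf9, Ikzf2 and Ikzf4 were lost. Without 10 M only 1 of the 13 was called higher, without 18 M 3, and without the block 0. With cells holding markers of other cell types left out, 0 of 10 were, and the median turned to -0.40. Within 18 M, the summed level of the list in dividing over other T cells was 2.03 among cells with Xist and 1.28 among cells with Y-linked UMIs. Dividing cells with Xist had 748 CPM of Ctla4 and those with Y-linked UMIs 101.1 CPM, and Tnfrsf4 had 148 and 31.7 CPM. Foxp3, the factor that defines regulatory T cells, had UMIs in 12 dividing T cells, 10 of them in 18 M. It had 3.91, 0, 45.2 and 49.0 CPM against 11.3, 4.00, 4.57 and 18.0 CPM, and did not pass the test (edgeR adjusted p = 0.072). In B cells, which should lack Foxp3, 0.0335% to 0.243% had a UMI at a median of 3186 to 3827 UMIs.

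Among activation genes, 2 of 21 rose and 3 fell, where 6.48% and 6.85% of all genes did, so few members were called in either direction. The costimulator Icos had 359, 283, 605 and 405 CPM against 288, 160, 230 and 183 CPM (0.60, SE 0.19), a call lost without 10 M, without 18 M and without the block. Cd27 fell by 0.93 (SE 0.22), most in NB with 31.3 against 235 CPM. Its call was lost without NB and at matched depth. Cd69, an early activation marker, fell by 0.71 (SE 0.20), also lost without NB. The immediate early gene Nr4a3 fell by 0.67 (SE 0.21), a call lost without NB, without 10 M, without 18 M and at matched depth. The inhibitory receptor Pdcd1 was at 21.8 to 54.2 CPM against 6.22 to 25.5 CPM and did not pass the test (0.49, SE 0.34).

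Receptors for cytokines did not rise. Of 17 tested, 4 fell, where 6.85% of all genes did. These were Il7r, Il4ra (-0.92, SE 0.22), Il21r (-0.92, SE 0.21) and Ifngr2 (-0.97, SE 0.29). The Il4ra and Ifngr2 calls were lost without NB and that of Il21r without 10 M. At matched depth the calls of Il7r, Il21r and Ifngr2 were lost. Il2ra, the high-affinity receptor chain for interleukin 2, was at 23.4, 0, 18.1 and 30.2 CPM against 13.3, 7.26, 10.8 and 27.2 CPM and did not pass the test (0.14, SE 0.40). Of 16 homing genes, the integrin chains Itgb7 and Itgb1 and the chemokine receptor Ccr4 rose and S1pr1 fell. Over all genes, 6.48% rose and 6.85% fell. Itgb7 had 234, 131, 325 and 153 CPM against 52.7 to 74.9 CPM, with no overlap (1.32, SE 0.20, edgeR adjusted p = 2.91e-09), and its call was lost with cells holding markers of other types left out. Itgb1 had 488, 65.3, 533 and 137 CPM against 64.9 to 158 CPM (1.06, SE 0.20), a call lost at matched depth and without the block. Ccr4 (1.80, SE 0.56) rested on 25 UMIs in 12 cells, and its call was lost without 10 M and without 18 M.

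Among genes of the receptor complex and its signalling, Thy1 rose (0.83, SE 0.20, lost without 18 M), while Lck (0.00, SE 0.21) and Cd247 (-0.03, SE 0.21) did not pass the test. Of 14 glycolysis genes, Tpi1 rose by 0.85 (SE 0.26) and Aldoa fell by 0.65 (SE 0.21), and the other 12 were not called. The Tpi1 call was lost without NB, without 18 M, at matched depth and without the block. That of Aldoa was lost without NB, without 2 M, at matched depth and without the block. Over all genes, 6.48% rose and 6.85% fell. Il17a was the 1 helper gene of 8 tested that was called (-1.68, SE 0.33). It stood at 78.1, 0, 54.2 and 0.943 CPM against 70.8, 21.0, 75.2 and 57.3 CPM. Its call was lost without 18 M, at matched depth and without the block. Of the gamma-delta genes, Blk fell by 3.50 (SE 0.87), with 2 UMIs in all, and its call was lost without 18 M.

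**Figure D4:**
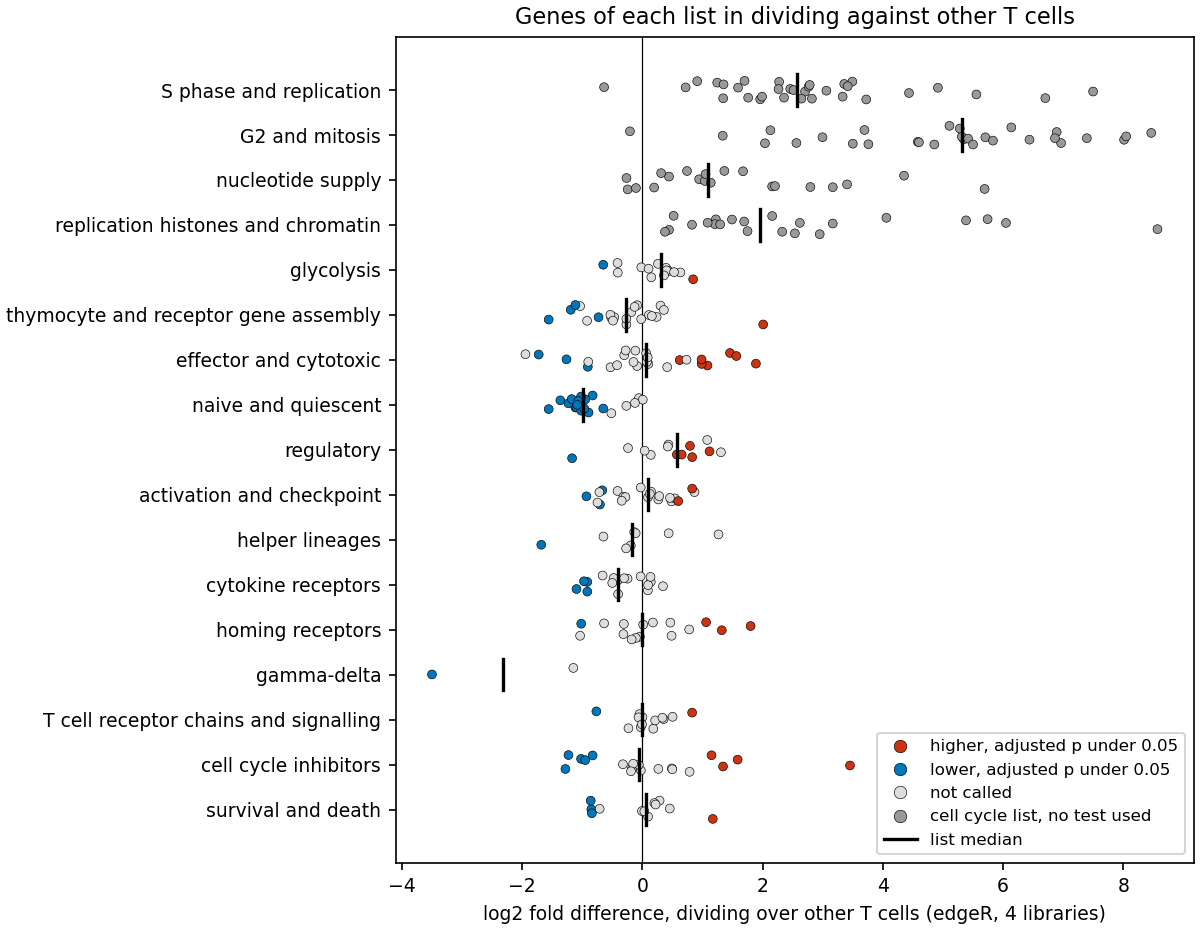
Log2 difference between dividing and other T cells (horizontal axis, edgeR fit over 4 libraries) of each tested gene, by list (vertical axis). Points are genes, black bars list medians, red and blue genes called higher and lower, and dark grey the cell cycle lists, for which no test was used. The naive list has 15 of 20 points called lower and a median of -0.99.

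Genes of thymocyte development were tested for 22 of the 30 listed. Of these 1 rose and 4 fell, where 6.48% and 6.85% of all genes did. The recombination genes were close to 0. Rag1 had 6 UMIs in 2 dividing T cells, Dntt 6 UMIs in 4 cells, all in 18 M, and Ptcra, the pre-T cell receptor chain, had none. Mns1, a flagellar protein, rose by 2.01 (SE 0.30) and was higher in all 4 libraries, at 54.2 to 152 CPM against 7.11 to 16.4 CPM. Those that fell were Lef1, Satb1, Ets2 (-0.73, SE 0.26) and Sox4 (-1.19, SE 0.29). The Ets2 call was lost when any 1 library was left out and at matched depth. The Sox4 call was lost at matched depth and without the block.

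By coreceptor, 36 dividing T cells had Cd4 UMIs only, 49 Cd8b1 only, 7 both and 30 neither. In B cells, 0.0919% to 0.618% had a Cd4 UMI and 0.138% to 0.206% a Cd8b1 UMI, at a median of 3186 to 3827 UMIs. NB had 7, 7, 2 and 5 cells of these classes, 2 M 0, 3, 0 and 0, 10 M 4, 3, 0 and 2, and 18 M 25, 36, 5 and 23. Cells with neither were the shallowest, with a median of 7855.5 UMIs against 11492.5 for Cd4, 13242 for Cd8b1 and 15751 for both.

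Cells with both coreceptors, as in developing thymocytes, were few. They made up 9.52% (1.17 to 30.4) of dividing T cells in NB and 5.62% (1.85 to 12.6) in 18 M. None were seen among 3 in 2 M and 9 in 10 M, which allows shares of up to 70.8% and 33.6%. Among other T cells of the dividing cells' depth, the share was 5 of 334 in NB and 6.25% in 18 M. With dividing cells thinned to 2000 UMIs, it was 0 in every library.

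**Figure D5:**
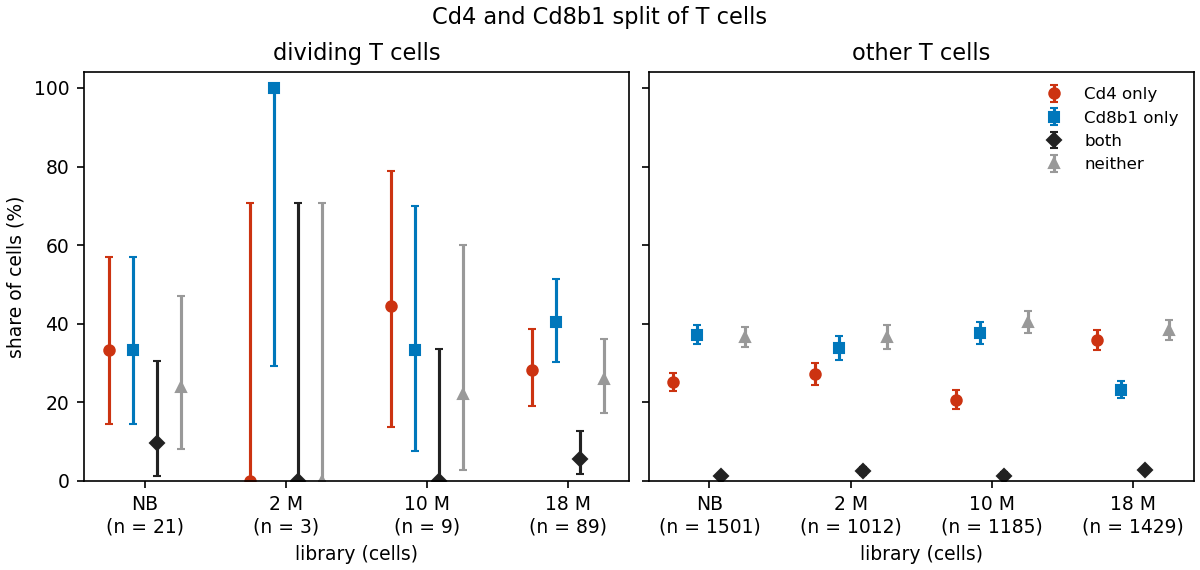
Share of cells (vertical axis, %) with UMIs of Cd4 only, Cd8b1 only, both or neither in each library (horizontal axis, with the number of cells), for dividing T cells on the left and other T cells on the right. Bars are exact 95% binomial intervals, which for dividing T cells are wide in 2 M (3 cells) and 10 M (9 cells).

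The Cd4 and Cd8b1 classes of dividing cells could be set side by side in NB (7 and 7 cells) and 18 M (25 and 36 cells). A test needed 3 libraries with at least 5 cells of both, so levels are given as values. Gzma, Ccl5 and Eomes were on the Cd8b1 side in both libraries. Gzma had 1365 CPM in Cd8b1 and 11.2 CPM in Cd4 dividing cells of NB, where 2 of the 7 Cd8b1 cells held all of it with 102 and 24 UMIs, and 78.5 and 3.26 CPM in 18 M. Ccl5 had 5526 and 482 CPM in NB and 259 and 22.8 CPM in 18 M. The transcription factor Eomes had 195 and 0 CPM, and 65.8 and 16.3 CPM. On the Cd4 side in both were Icos (561 against 75.8 CPM in NB, 728 against 140 CPM in 18 M), Maf (325 against 10.8, 277 against 27.6 CPM), the B cell help ligand Cd40lg (67.3 against 0, 48.9 against 0 CPM) and S100a4 (1570 against 238, 721 against 38.2 CPM).

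Other genes took opposite sides in NB and 18 M. S100a6 had 1896 CPM in Cd8b1 and 819 CPM in Cd4 dividing cells of NB, but 82.7 and 1318 CPM in 18 M. Lgals1 had 3001 and 1626 CPM in NB, and 679 and 1478 CPM in 18 M. Ccl4 had 86.7 and 314 CPM in NB, and 129 and 42.4 CPM in 18 M. These differences between libraries were not tested.

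In 18 M the genes of the naive list lay on both sides. Ccr7 had 456 CPM in Cd8b1 dividing cells (34 of 36 cells) and 264 CPM in Cd4 dividing cells, and Satb1 had 1118 and 790 CPM. On the Cd4 side were Il7r (78.5 CPM in Cd8b1 against 196 CPM in Cd4 cells), S1pr1 (165 against 254 CPM), Foxp1 (363 against 522 CPM) and Cdkn1b (151 against 212 CPM). Lef1 had 195 against 238 CPM and Tcf7 276 against 333 CPM. The costimulator Cd27 had 231 against 114 CPM. Of the regulatory list, the Cd4 dividing cells of 18 M had Foxp3 at 104.4 against 19.1 CPM, Ctla4 at 763 against 63.6 CPM, Tnfrsf4 at 199 against 6.36 CPM and Il10 at 114 against 0 CPM, the last from 3 cells.

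Dividing T cells of single libraries were compared by size of difference, with no test. Of 5991 genes with at least 30 UMIs, those at least 2-fold above each other library numbered 40 for NB (0.668%), 83 for 10 M (1.39%) and 77 for 18 M (1.29%). The 3 cells of 2 M were too few for the rule. One UMI is worth 3.91, 21.8, 9.03 and 0.943 CPM in the 4 dividing sums, so single values of 2 M and 10 M are coarse.

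In NB the 10 leading genes were Cxcl10, the metallothioneins Mt2 and Mt1, Gadd45b, Ifitm3, Gzmk, Gzma, Ggh, Serpinb6a and Ifng. Without the cells that held 10 or more stromal or neutrophil marker UMIs, Mt1, Mt2, Gadd45b and Ifitm3 were no longer among them. The interferon-induced chemokine Cxcl10 had 492 CPM against 0 to 44.3 CPM in the other libraries, all of it in 5 cells. Gzma had 629 CPM in 5 cells, Gzmk 148 CPM in 9 cells against 0 to 27.1 CPM, and Ifng 145 CPM in 8 cells against 0 to 36.1 CPM. In 10 M the chemokine receptor Cxcr3 had 253 CPM in 5 cells against 0 to 50.8 CPM, and Gna15 217 CPM against 0 to 31.3 CPM. Other T cells of 10 M had 39.6 and 30.2 CPM of these genes.

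In 18 M Xist led with 1066 CPM, and Sox4, a transcription factor of immature lymphocytes, followed among genes not of connective tissue. Sox4 had 147 UMIs in 48 of 89 dividing T cells (139 CPM) and 0 in the 33 of the other libraries. It was higher still in other T cells of 18 M, at 208 CPM, against 18.3 to 70.3 CPM in other T cells of the other libraries. B cells of 18 M held it as well, in 41.6% of cells. The RNA-binding protein Igf2bp3 had 83.9 CPM in dividing and 91.1 CPM in other T cells of 18 M, against 0 to 15.6 CPM in the other libraries. The collagen genes Col1a1, Col1a2 and Col3a1 also ranked high in 18 M. One cell held 1519 of the 1568 stromal marker UMIs there, and without the cells that held 10 or more stromal or neutrophil marker UMIs none of the 3 was among the 10 leading genes.

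Markers of other cell types were measured in the dividing sums. Of the 6 B cell markers in the table, Cd79a was at 0 by the rule, Ms4a1 was at 0 in all libraries, and the sum was 9.03 to 21.8 CPM, against 9.93 to 23.5 CPM in other T cells. The NK marker Ncr1 was at 0 in all 4, and the sum of 5 NK markers was 0 to 63.2 CPM against 8.59 to 40.1 CPM. Platelet markers had 1 UMI in all. Stromal markers were at 164, 0, 0 and 1478 CPM, against 11.3 to 299 CPM, and neutrophil markers at 97.7, 43.5, 0 and 515 CPM, against 219 to 1454 CPM. In 18 M 1 cell held 503 of the 546 neutrophil UMIs. Erythroid markers, mostly haemoglobin, were at 23447, 87.1, 325 and 8800 CPM, against 5086 to 25275 CPM, and 3 cells held 98.8% of them in NB. Alveolar markers, which should be absent from T cells, were at 93.8, 65.3, 45.2 and 300 CPM, against 87.8 to 1996 CPM. With cells holding any UMI of a set of markers of other types left out, Ms4a1, Csf1r, S100a8, Pecam1 and Dcn among them, 6, 2, 5 and 33 dividing T cells were left. Of 8379 genes then tested, 215 were higher and 210 lower. Pecam1 alone had UMIs in 59 of the 122 dividing T cells, while the endothelial markers Cldn5 and Cdh5 had 0 and 1 UMI. Removal of other cells' RNA and the smaller number of cells were thus not told apart. The part of other cells' RNA in the named differences was not tested beyond this.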

How the data were processed

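Whole lung of 4 libraries, 1 per age, was measured by single-cell RNA-seq. The deposited counts are unnormalized UMI counts for each gene in each barcode, which the authors made with Cell Ranger against mm10, version 3.0.2 by the submitters' processing notes. The header of the deposited files names a later release, and barcodes had already been called as cells. Seurat 2.0 was the authors' tool downstream. The study states a lower number of kept cells than the limits used here left, and the difference was not resolved.

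Members and gene lists were chosen with earlier results of these data known. UMIs were summed per library and class and tested with edgeR 4.0.16 in R 4.3.3 (quasi-likelihood, TMM, filterByExpr, library as block), with Benjamini-Hochberg adjustment over all 9758 genes. The 6 genes of the rule were left out. The 4 sums per class are libraries, which are the unit of the test, and every adjusted p in the text comes from edgeR. The spread of each gene is moderated with that of all genes. A small p thus does not show that a gene moved alike in each library, and Ctla4 and Gzma did not. Named genes were members of fixed lists, the 10 highest and 10 lowest called genes off the cell cycle lists that moved alike in all 4 libraries, and the 10 leading genes of each library. Promoters came from RefSeq on GRCm38.p6.

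Scrublet, run in scanpy 1.11.5, called 155, 116, 0 and 4 cells. The last 2 runs had not worked, so doublets were left in, and no dividing T cell was called. Cells for the thinned alternatives were drawn with a fixed seed. Alternatives were DESeq2 1.42.0, other filters, no block, each library left out, matched depth, thinning, stricter markers and removal of cells with markers of other types. Shares carry exact Clopper-Pearson intervals from scipy 1.17.1 (Python 3.11.15). T cell receptor constant genes were not analysed here. A few genes of the lists and markers are not reported here.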

Additional observations from a re-analysis of the deposited data

Results flagged for a closer look

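For 6 genes of the lists, the ratio of the summed level in dividing to that in other T cells lay above 1 in some libraries and below 1 in others, and only ratios whose exact interval left out 1 are given. The difference between libraries was not tested, and each interval covers counting error only.

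Ccr7 had a ratio of 1.52 (1.14 to 1.99) in the 3 dividing cells of 2 M, while NB had 0.0952, 10 M 0.247 and 18 M 0.639. S100a6 had ratios of 2.39 in NB, 4.05 in 10 M and 2.43 in 18 M, and of 0 (up to 0.970) in 2 M. Gzma had 7.2 in NB, where it was in 5 cells, 1.5 in 18 M and 0.515 in 10 M. Ccl4 had 1.43 in NB, 0.105 in 10 M and 0.323 in 18 M. Ctla4 had 4.77 in 10 M and 2.66 in 18 M, and 0.677 in NB. Nr4a3 had 2.53 in 2 M, 0.649 in NB and 0.582 in 18 M.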

How the results depend on the processing

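Dividing and other T cells were paired within the library by the library block, while ages, with 1 library each, could not be paired. With no replicate block, 450 genes were higher and 261 lower, and 40 of 70 named calls were lost. Of 118 values that answer a comparison, 83 stayed within their range and 35 moved.

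The share was highest in 18 M under each alternative run. With Mki67 or Top2a in place of both, the shares were 11.3%, 8.33%, 10.8% and 15.4%. With cells holding markers of other types left out, NB had 0.609% and 18 M 3.94%. Thinned to 1000 UMIs, NB and 10 M had 0, 2 M 0.463% and 18 M 1.37%. Thinned to 2000 UMIs, NB had 0.110%, 2 M 0.204%, 10 M 0.151% and 18 M 3.50%, so the order of the 3 younger libraries, each with at most 1 cell, was not that of the unthinned shares. Among T cells with at least 8000 UMIs, an alternative chosen after seeing the data, the shares were 4.21%, 1.11%, 1.88% and 23.7%. The double positive share fell to 0 in NB and 0 in 18 M after thinning.

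Genes higher numbered 385 to 674 and genes lower 274 to 620 with 1 library left out, the fewest higher without 18 M and the fewest lower without NB. Matched depth gave 384 and 257 of 6350 genes tested, and thinning 29 and 5 of 5374. Removal of cells with markers of other types gave 215 and 210 of 8379, and DESeq2 498 and 323 of 9758. Removal of cells with 10 or more stromal or neutrophil marker UMIs, chosen after seeing the data, gave 665 and 723. Genes at least 3-fold above each other library numbered 15 in NB, 6 in 10 M and 20 in 18 M. With at least 10 UMIs, NB had 77, and with no upper limits on genes and UMIs, 18 M had 159.

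Of 870 fits of named genes, 6 reversed. Gzma was -0.26 with DESeq2, and between -0.45 (without NB) and 1.23 (without 10 M) with 1 library left out. Ctla4 was -0.41 thinned and -0.33 with cells holding markers of other types left out, where Tnfrsf4 was -0.49. Ikzf4 was 0.13 thinned. The cause was not tested. Calls for Btg1, Tob1, Txnip, Lgals1, Ccnd2 and Mcl1 were lost under thinning alone. The alternatives for Cd8b1 against Cd4 cells were not run, since that test was not made. Few cells in 2 M and 10 M limit every value there.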

Other observations

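Some cells lay just outside the rule. Of cells with UMIs of both Mki67 and Top2a, 22 had only 1 of the 3 Cd3 genes, 23 met the T cell rule but had Cd79a UMIs, 21 of them in the library labelled 18 M, and 14 lay outside the limits on genes, UMIs or mitochondrial share.

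Among the 10 genes called lowest in dividing T cells of all 4 libraries and on no cell cycle list, 7 had 0 UMIs in every dividing sum, and no fold is given for them. The others were the cytokine Il1a, the cytokine receptor chain Csf2rb and Tnfaip2. The Il1a call was lost without the library labelled 18 M and without the block, and the Csf2rb call without the block.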
